A study of Homo sapiens with 12 samples.

Results

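The integrated stress response genes and the aminoacyl-tRNA synthetases (enzymes that load amino acids onto tRNAs) were examined as a group of 35 genes of K562 cells, a line grown from a chronic myeloid leukemia. Members were taken by symbol from the deposited expression table, which lists 27348 genes, and all 35 were present. They comprise 9 regulators and effectors of the response, 6 enzymes of serine, glycine and one-carbon metabolism, 3 enzymes of asparagine synthesis and transsulfuration, 4 amino acid transporters, the tRNA exporter XPOT and 12 synthetases. The K562 cells were infected with shRNA sh#1 or sh#2 against the long isoform of PHF19, a Polycomb-like protein associated with PRC2, or with an empty control vector (shCT), and were selected with puromycin. RNA-seq was run in 6 libraries, 2 for each of the 3 groups, and ChIP-seq in 6 libraries with fly chromatin added as a spike-in, 1 for each condition. The peak lists analysed were PHF19 in shCT cells, MTF2 (a homolog of PHF19) in sh#2 cells and MTF2 in shCT cells. The list labelled MTF2 in sh#2 cells is headed sh4 by its authors, and is called by its label here.

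In the integrated stress response, kinases that sense amino acid shortage, heme shortage, viral RNA or misfolded protein phosphorylate the translation factor eIF2. General translation then falls while the transcription factor ATF4 is made, and ATF4 with a C/EBP-family partner binds a composite element in the promoters of genes for amino acid synthesis, amino acid uptake and tRNA charging. In red cell precursors the heme-regulated kinase EIF2AK1 couples globin translation to heme supply.

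The RNA values were the authors' mean of normalized counts over all 6 libraries, one number for each gene. The depth of each library, the spread between replicates and the level in each group are therefore not known here, and no change upon PHF19 depletion is given. PHF19 itself had an authors' mean of 7797, which pools depleted and control cells and does not check the depletion. The K562 label was compared with 10 erythroid markers, all of which were measured, with authors' means between 632 for EPOR and 171752 for HBG2. Of the markers of other cell types, MS4A1 (B cells) was at 0, and MPO, ALB and COL1A2 were between 1.43 and 6.72, while CD3E had 13.6, COL1A1 68.2, CD3D 962 and EPCAM 3071.

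The composite element was searched first, since it is the sequence through which ATF4 is known to act. The search used the letters TGATGNAAN on both strands of the RefSeq promoters (GRCh38.p14), which run from 250 bases before a transcript start to 50 after it. A promoter was given for 29 of the 35 genes, and all 45 promoter sequences of these genes were found by an exact match on GRCh37, the assembly of hg19. Of the 29 genes, 11 held the element (37.9%, exact binomial 95% interval 20.7 to 57.7%), against 3.73% of the 17891 genes of the table with a promoter, 2.70% of those with an authors' mean of at least 10 and 2.48% of those with at least 1000. Counted over promoters, 11 of 45 held it (24.4%), against 2.85% of all 24389. Sites of 8 of the 11 genes follow, 5′ to 3′ on the gene's strand with the element in capitals, because they cover every form of the element and both orientations.
AARS (alanine), chr16:70323579-70323607, minus strand: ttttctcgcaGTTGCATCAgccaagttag
IARS (isoleucine), chr9:95055975-95056003, minus strand: ttttcagcgcGTTGCATCAcctccgtgcg
NARS (asparagine), chr18:55289036-55289064, minus strand: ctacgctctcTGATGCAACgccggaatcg
CHAC1, chr15:41245449-41245477, plus strand: ctcccctgccGTTGCATCActcctgccag
TARS (threonine), chr5:33441062-33441090, plus strand: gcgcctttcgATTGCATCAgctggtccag
GARS (glycine), chr7:30634450-30634478, plus strand: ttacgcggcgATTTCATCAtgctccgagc
ASNS, chr7:97501770-97501798, minus strand: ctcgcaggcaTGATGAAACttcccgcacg
SLC3A2, chr11:62649197-62649220, plus strand: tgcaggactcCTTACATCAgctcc

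Read in the direction of TGATG, the element was TGATGCAAC in 6 of these genes, namely AARS, CARS, IARS, MARS, NARS and CHAC1. TGATGAAAC stood in ASNS, the asparagine synthetase, and in SLC7A1, the carrier of arginine and lysine. TARS had TGATGCAAT, GARS TGATGAAAT and SLC3A2, the heavy chain of the amino acid exchangers, TGATGTAAG. The match was on the gene's own strand in ASNS, NARS and SLC7A1 and on the opposite strand in the others. Positions count from the RefSeq start, which is position 0. In CHAC1, a glutathione-degrading enzyme, the element ran from -210 to -202 and in AARS from -188 to -180. It lay closer in ASNS (-68 to -60), GARS (-34 to -26) and IARS (-14 to -6), and spanned the start in MARS (-5 to 3) and CARS (-3 to 5). In TARS (1 to 9), SLC7A1 (7 to 15), NARS (14 to 22) and SLC3A2 (36 to 44) it lay after the start. The sites therefore spread over nearly the whole window, with the synthetases other than AARS within 34 bases of the start.

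**Figure D1:**
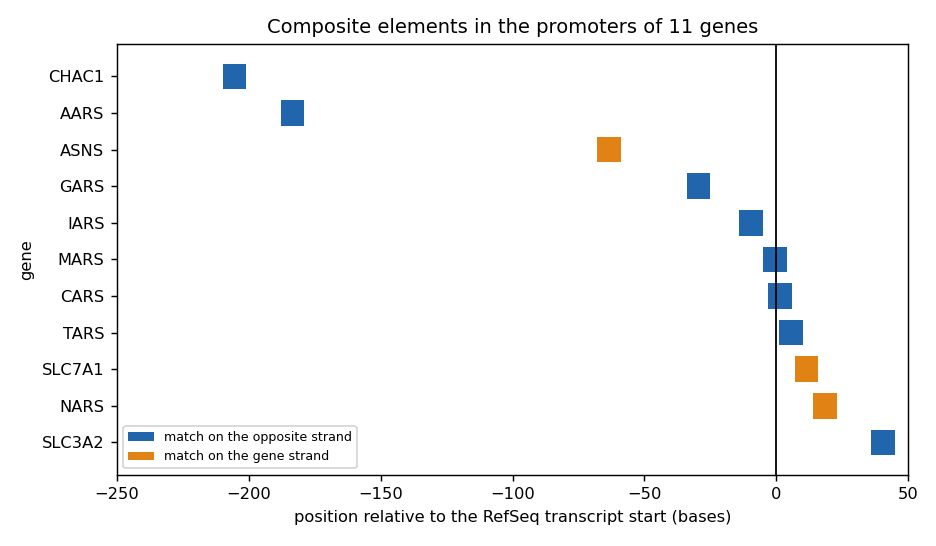
Position of the composite element in the 11 genes that hold it, in bases from the RefSeq transcript start (vertical line). Each block is 1 element, in blue for a match on the opposite strand and in orange for the gene's own strand. CHAC1 (-210 to -202) and AARS (-188 to -180) lie far upstream, and SLC3A2 (36 to 44) lies farthest downstream.

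The synthetases accounted for most of these sites. Of the 10 member synthetases with a promoter, 7 held the element (70.0%, exact 95% interval 34.8 to 93.3%), and WARS, SARS and EPRS, which charge tRNAs with tryptophan, serine, and glutamate and proline, did not hold these letters in this window. Of the 19 other members, 4 held it (21.1%, interval 6.05 to 45.6%). Of the 9 regulators CHAC1 alone held it (11.1%, interval 0.281 to 48.2%). ATF4, ATF5, DDIT3, DDIT4, TRIB3, SESN2, PPP1R15A and STC2 did not, nor did any of 3 serine, glycine and one-carbon enzymes with a promoter. Among the synthetases and scaffold genes of the cytosol that are not members (HARS, KARS, QARS, RARS, VARS and others), 0 of 9 held it, with an interval up to 33.6%. Of 14 mitochondrial synthetases, YARS2 alone held it (7.14%). The member list holds genes known as ATF4 targets, so its share describes that list and is not a finding about other genes. A further list was also chosen as targets of the response, so its share likewise describes that list. Of its 16 genes with a promoter, 7 held the element, among them CEBPG, a C/EBP-family partner of ATF4, and FGF21, a secreted metabolic hormone. The others were ATF3 and JDP2, both transcription factors, MTHFD1L, a mitochondrial folate enzyme, and the amino acid transporters SLC1A4 and SLC1A5. The element was also found in HERPUD1, 1 of 8 genes of the unfolded protein response, and in PPP1R15B, which directs the eIF2 phosphatase and was 1 of 11 genes of the eIF2 list.

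**Figure D2:**
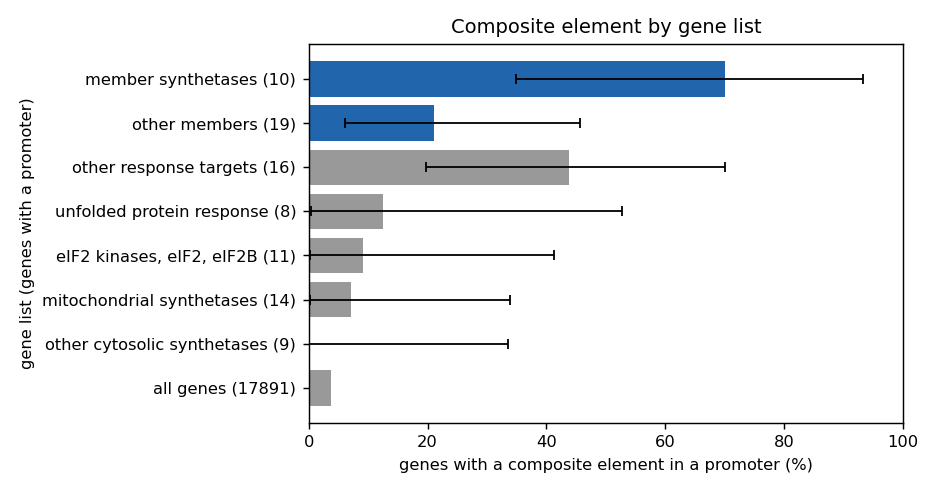
Share of genes whose promoter holds the composite element, in percent, by gene list, with the number of genes with a promoter in brackets. Blue bars are member synthetases and other members, grey bars the other lists, and error bars are exact binomial 95% intervals. Member synthetases reached 70.0%, other cytosolic synthetases 0.0% and all genes 3.73%.

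The promoters were also rich in CpG dinucleotides, the sequence that unmethylated CpG islands share and to which Polycomb-like proteins bind. The ratio of observed to expected CpG was at least 0.6 in 29 of 29 members, against 66.2% of all genes with a promoter, 84.3% of those with an authors' mean of at least 10 and 94.5% of those with at least 1000. The members' share is thus close to that of genes with an authors' mean of at least 1000. The median ratio was 0.936 in the members, against 0.857 in genes with a mean of at least 10 and 0.9 with at least 1000. In genes with a promoter peak it was 0.839 for PHF19 in shCT cells, 0.778 for MTF2 in sh#2 cells and 0.79 for MTF2 in shCT cells. The members' values ran from 0.614 for ATF5, a transcription factor related to ATF4, to 1.21 for EPRS.

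The level of the members in K562 cells, over depleted and control cells together, was high for most. The authors' mean, not divided by length, was at least 1000 in 27 of the 35 genes, against 42.9% of the 14680 genes with a mean of at least 10, and all 35 reached that minimum. To compare levels between genes, the authors' mean was divided by the length in kb of the longest annotated transcript. On that scale the member median was 1436, against 206 for the 14037 placed genes with a mean of at least 10. Of the 35 genes, 24 were in the top 25% of those genes. The highest member, SARS (6956 per kb), stood 209 times above the lowest, CHAC1 (33.3 per kb). Which transcripts the cells express is not known here, so ranks per kb depend on the annotated length. For example, GARS had a higher authors' mean than NARS (12108.5 against 9128.68) but fewer counts per kb. Its longest transcript was 8.433 kb, against 2.762 kb for NARS.

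The 12 synthetases all had an authors' mean above 1000, with a median of 2251 per kb, against 745 per kb in the 23 other members. The lists overlapped, since ATF4 and DDIT4 stood above most synthetases and CARS below many of the other members. SARS had 6956 per kb, TARS 5845 and EPRS, the bifunctional enzyme with 2 charging activities in 1 chain, 5273. YARS followed with 3495 per kb and NARS with 3305, which charge tyrosine and asparagine. In between lay IARS (2299 per kb), WARS (2204), LARS (1972, leucine), AARS (1587) and MARS (1540). GARS had 1436 per kb and CARS, the lowest, 400. Of the 12, CARS alone was outside the top 25% of genes, at percentile 65.6. The other cytosolic synthetases and scaffold genes had a median of 2485 per kb over 11 genes. Per kb, KARS (lysine) was highest with 5793, VARS (valine) had 3590, the scaffold gene EEF1E1 1653, and AIMP2, another scaffold gene, was lowest with 536. The 17 mitochondrial synthetases had a median of 438 per kb, between 195 for FARS2 and 3155 for IARS2, with 245 for PARS2 and 223 for MARS2. XPOT, which carries tRNAs out of the nucleus, had 1759 per kb.

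Among the regulators the levels were spread more widely. ATF4, whose translation carries the response, had an authors' mean of 9396 and 4654 per kb (percentile 97.3). DDIT4, an inhibitor of the growth kinase mTORC1, had 3269 per kb, and PPP1R15A, the subunit that directs a phosphatase to eIF2, had 1518. DDIT3, which encodes the pro-apoptotic factor CHOP, had 848 per kb and TRIB3, a pseudokinase that feeds back on ATF4, 745. SESN2, a leucine sensor upstream of mTORC1, had 277 per kb, ATF5 168 and STC2, a secreted glycoprotein, 80.9. CHAC1 had an authors' mean of 50.7 and, at 33.3 per kb, was the lowest of the 35 genes. The regulators thus ran from percentile 23.1 to 97.3 of the placed genes. ATF4 and DDIT4 stood above the median of the member synthetases (2251 per kb). PPP1R15A, DDIT3 and TRIB3 stood below that median but above CARS, the lowest synthetase (400 per kb).

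In serine, glycine and one-carbon metabolism, SHMT2, which turns serine into glycine in mitochondria, had 1763 per kb and PSAT1, the aminotransferase of serine synthesis, 1360. MTHFD2, a mitochondrial folate dehydrogenase, had 1111 per kb, PHGDH, which opens serine synthesis, 720, and PSPH, which closes it, 542. ALDH1L2, a mitochondrial formyl-tetrahydrofolate dehydrogenase, had 52.3. ASNS had 2500 per kb, against 286 for CTH and 193 for CBS, the enzymes that make cysteine from homocysteine. Among transporters SLC3A2 had 2024 per kb and its light chain SLC7A5 876, while SLC7A1 had 307 and SLC7A11, the cystine carrier, 135. Annotated pseudogenes carry the names of 12 members, among them MTHFD2 (7), ASNS (5), ATF4 (4) and PSAT1 (4). The authors kept uniquely mapped reads, so the values of these genes are uncertain where reads could fit a copy.

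**Figure D3:**
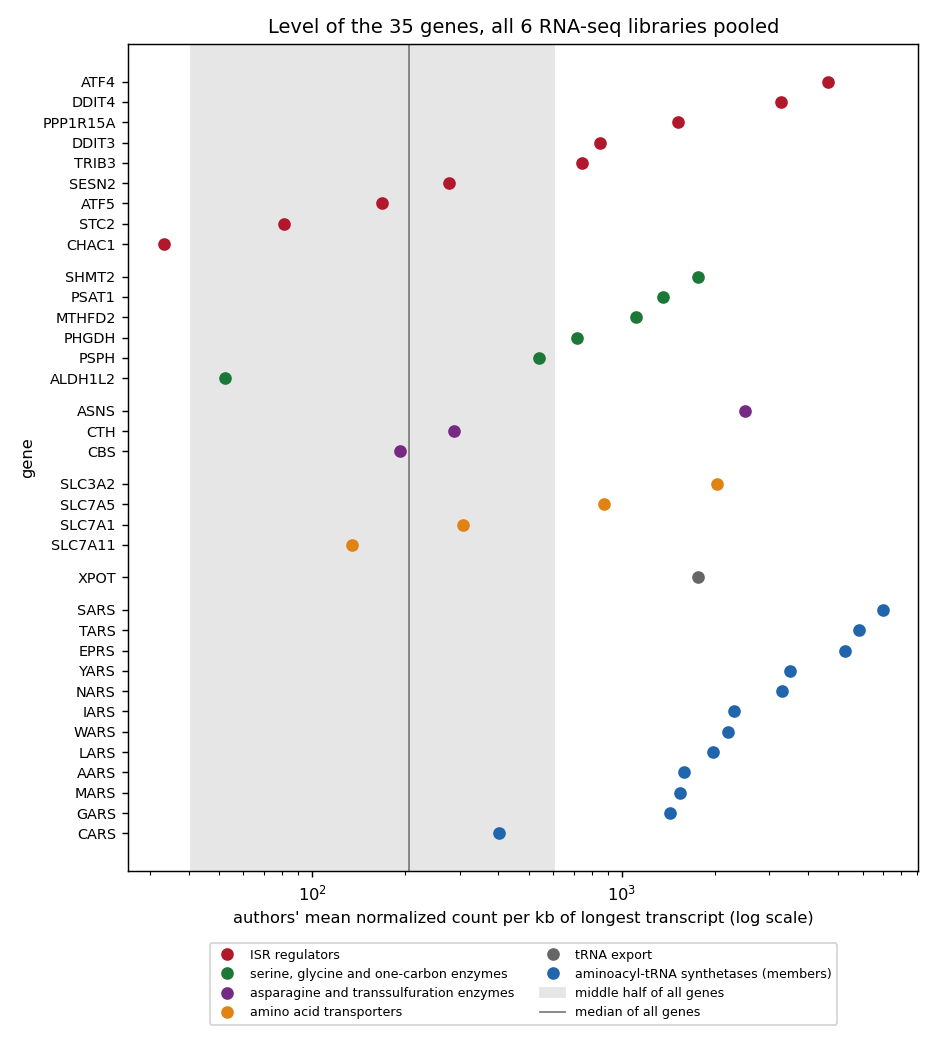
Authors' mean normalized count per kb of the longest transcript for the 35 genes (log axis), all 6 libraries pooled, so no error is given. Colors mark the roles, the grey band the interquartile range of all placed genes with a mean of at least 10 and the line their median (206). The synthetases run from 400 for CARS to 6956 for SARS, and CHAC1 (33.3) is lowest.

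Of the wider pathway, EIF2S3, a subunit of eIF2, had 7733 per kb and the kinase EIF2AK1 3605. EIF2B2, a subunit of the exchange factor eIF2B, had 307 per kb, and EIF2AK3, the kinase of the endoplasmic reticulum, was lowest of that list with 137. Of the further targets, SLC1A5 (3516 per kb) and PYCR1 (2780), an enzyme of proline synthesis, were highest. VLDLR, the lipoprotein receptor, and FGF21 were lowest, with authors' means of 5.65 and 0.325 before division by length. HSPA5, the main chaperone of the endoplasmic reticulum, had 4580 per kb, ATF6, a sensor of unfolded protein, had 603, DNAJB9, a co-chaperone, had 418, and ERN1, another sensor, had 20.6.

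Whether PHF19 and MTF2 occupied these genes was examined in the 3 peak lists, with 5621 peaks for PHF19 in shCT cells, 18287 for MTF2 in sh#2 cells and 12502 for MTF2 in shCT cells. A promoter was taken as 2.5 kb on either side of any annotated transcript start. PHF19 had a promoter peak at 1 of the 35 genes (2.86%, exact 95% interval 0.0723 to 14.9%), against 7.81% of the 24419 placed genes, 8.14% of those with an authors' mean of at least 10 and 5.81% of those with at least 1000. MTF2 had one at 2 of the 35 genes in sh#2 cells (5.71%, interval 0.7 to 19.2%), against 15.5, 10.3 and 3.03% of the same groups of genes. In shCT cells MTF2 had one at 1 of the 35 (2.86%), against 11.1, 7.47 and 2.09%. All of these shares lie within the members' intervals, so a difference was not detectable with 35 genes. The share of genes with a promoter peak differed by level in all 3 lists. For MTF2 in sh#2 cells it was 22.6% for an authors' mean below 10 and 24.5% from 10 to below 100. It was 9.96% from 100 to below 1000 and 3.03% from 1000. Over the same levels it was 15.9, 18.3, 7.02 and 2.09% for MTF2 in shCT cells. For PHF19 in shCT cells it was 7.38, 13.3, 7.62 and 5.81%.

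**Figure D4:**
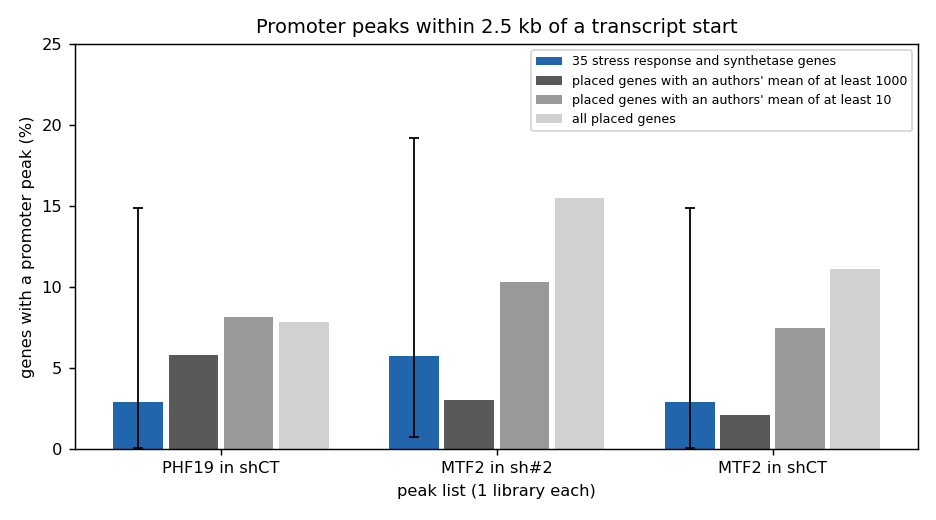
Share of genes with a promoter peak, in percent, for PHF19 in shCT cells, MTF2 in sh#2 cells and MTF2 in shCT cells, 1 library each. Blue bars are the 35 genes with exact binomial 95% intervals, and grey bars the placed genes by minimum authors' mean. The members' shares are 2.86, 5.71 and 2.86%.

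The single PHF19 promoter peak lay at TARS, from 33439446 to 33440820 on chromosome 5 (GRCh37). Its score of 56.9 ranked 4435 of 5621, and it ended 251 bp upstream of the canonical start. The peak covers an annotated start further upstream, at 33440802, and overlaps only the first bases of 1 exon there. The composite element of TARS lies beyond the end of the peak. The bases before that upstream start are shown because the peak covers them whole, with the 16 CpG in capitals.
TARS promoter, chr5:33440552-33440801, plus strand: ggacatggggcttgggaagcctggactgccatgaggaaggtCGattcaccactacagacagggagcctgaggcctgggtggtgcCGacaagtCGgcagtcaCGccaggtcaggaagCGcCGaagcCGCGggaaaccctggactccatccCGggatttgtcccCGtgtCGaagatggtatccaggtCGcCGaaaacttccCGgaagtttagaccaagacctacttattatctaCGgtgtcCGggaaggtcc

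STC2 had an MTF2 peak over its start in sh#2 cells, from 172753395 to 172756247 on chromosome 5. The peak was 2853 bp wide, with a score of 242 that ranked 4284 of 18287, and ran from -830 to 2022 bp relative to the canonical start. In shCT cells no MTF2 peak was called there, and the nearest was 26.9 kb away. STC2 was the only one of the 35 genes with an MTF2 promoter peak in sh#2 cells and none in shCT cells (2.86%), against 5.14% of all placed genes, 3.38% of those with an authors' mean of at least 10 and 1.32% of those with at least 1000. With 1 library for each condition, and list sizes of 18287 and 12502 peaks, the difference has no replicate check. The bases upstream of its annotated transcripts, all under the sh#2 peak, hold 21 CpG, shown in capitals.
STC2 promoter, chr5:172755451-172755667, minus strand: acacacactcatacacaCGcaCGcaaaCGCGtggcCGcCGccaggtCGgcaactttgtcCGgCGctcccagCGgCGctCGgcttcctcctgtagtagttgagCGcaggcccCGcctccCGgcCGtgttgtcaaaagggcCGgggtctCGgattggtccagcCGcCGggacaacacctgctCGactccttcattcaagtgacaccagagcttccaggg

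PHGDH, on chromosome 1, had MTF2 peaks in both conditions, of low score. In sh#2 cells one peak ended 2226 bp upstream of the canonical start, with a score of 57.9 (rank 16224 of 18287). In shCT cells 2 peaks ended at -2492 and -1184 bp from it, with scores of 51.9 and 55.9 (ranks 11887 and 10729 of 12502). The peaks lie inside longer annotated transcripts of PHGDH. In sh#2 cells a further peak (score 92.0) covered the distant upstream start of those transcripts. In shCT cells a separate peak (score 60.2) began 2323 bp downstream of that start and did not overlap the sh#2 peak. No peak of any list covered the canonical start of PHGDH.

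Targets were also taken over the region from 2.5 kb upstream of a gene to its end. The study used that region with RefSeq transcripts and, for PHF19, a tag minimum, whereas GENCODE transcripts and all deposited peaks were used here. The 5621 PHF19 peaks are more than the study kept, and whether the peaks at TARS and ALDH1L2 passed its minimum is not known. PHF19 targets were TARS and ALDH1L2 (2 of 35, against 10.1% of placed genes and 7.17% of those with an authors' mean of at least 1000), the second through a peak 7.54 kb upstream of its canonical start, in an intron of a longer transcript. MTF2 targets were PHGDH and STC2 in sh#2 cells (2 of 35, against 17.9, 12.0 and 4.05% of all placed genes and those with an authors' mean of at least 10 and 1000), and PHGDH and LARS in shCT cells (2 of 35, against 13.4, 9.02 and 2.94%). The LARS peak was 386 bp wide and lay inside the gene. Of the pathway genes that are not members, ATF3 had peaks of high rank in all 3 lists (ranks 3 for PHF19, 21 for MTF2 in sh#2 cells and 54 for MTF2 in shCT cells). JDP2 had MTF2 promoter peaks in sh#2 cells (score 252, rank 4077) and in shCT cells (score 195, rank 2267), and MTHFD1L had them with scores of 80.5 and 68.3. GPT2, an alanine aminotransferase, had one in sh#2 cells alone (score 86.0). PHF19 promoter peaks stood at LARS2 and FARS2 (scores 56.2 and 53.3). AARS2 had MTF2 peaks over its 3′ end in both conditions (scores 172 in sh#2 cells and 331 in shCT cells). They counted as promoter peaks through a downstream start, 2298 bp away in sh#2 cells and 2167 bp away in shCT cells. In sh#2 cells a further MTF2 peak (score 73.3) covered the canonical start of AARS2. Scores are not comparable between lists.

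The distance from the canonical start to the nearest peak was compared without a test. For PHF19 the median was 179 kb in the 35 genes, against 164 kb in genes with an authors' mean of at least 1000. For MTF2 it was 126 kb, against 126 kb, in sh#2 cells, and 192 kb, against 157 kb, in shCT cells. Peaks of all 3 lists lay near SHMT2 without reaching its promoter. They ended 7.23 kb upstream for PHF19, 7.16 kb for MTF2 in sh#2 cells and 7.38 kb for MTF2 in shCT cells, and fell in the promoter of the neighbouring gene NXPH4 on chromosome 12, which encodes neurexophilin 4 and had an authors' mean of 35.7. The MTF2 peak there was 8880 bp wide (score 1154, rank 345 of 18287) in sh#2 cells and 1965 bp wide (score 177, rank 2545 of 12502) in shCT cells. Only the sh#2 peak covered the edge of NXPH4 at 57610577. The PHF19 peak and the shCT MTF2 peak lay wholly inside the gene, near an annotated start within it.

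**Figure D5:**
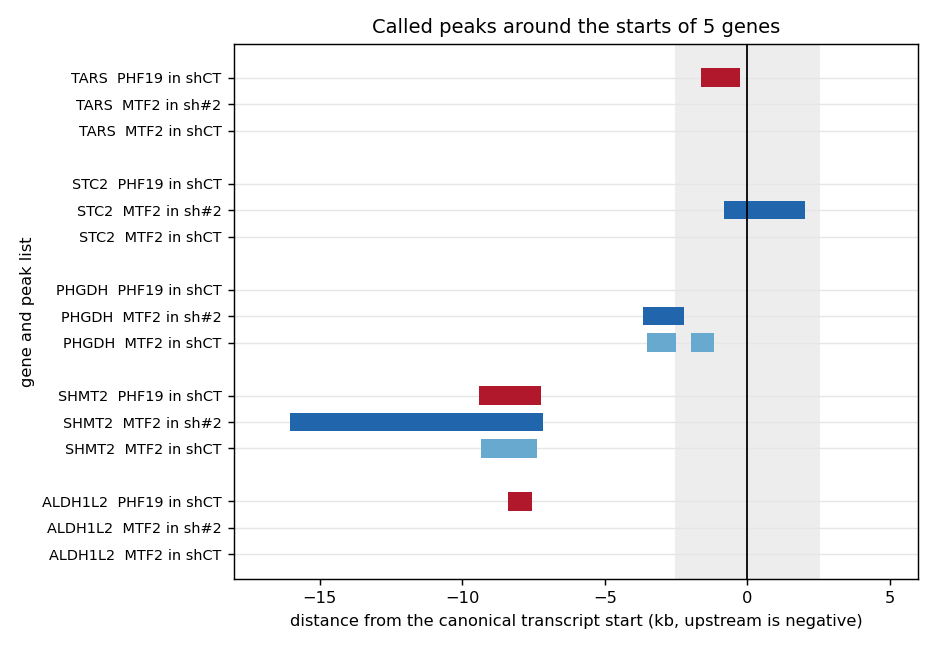
Called peaks (bars) around the canonical starts of TARS, STC2, PHGDH, SHMT2 and ALDH1L2, in kb from the start, upstream negative, with the promoter window shaded. Red bars are PHF19 in shCT cells, dark blue bars MTF2 in sh#2 cells and light blue bars MTF2 in shCT cells. The STC2 bar, in sh#2 cells alone, is the only one that covers a canonical start.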

How the data were processed

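RNA-seq reads were aligned by the authors to hg19 (TopHat, unique matches), quantified over RefSeq exons and analysed with DESeq2. The authors deposited 1 table, whose first column is a signal, the mean over all 6 libraries of counts divided by size factors. Its other 5 columns hold their own comparison of shRNA and control cells (fold change, error, statistic and p-values) and were not used. ChIP-seq reads were mapped uniquely by the authors (Bowtie, hg19 with dm3). MACS peaks were deposited as positions with a score for each peak. The sources used here give no tool versions. The authors' tag minimum for PHF19 peaks could not be repeated, and the name inside the PHF19 list mentions sh4 beside the control, so the control given to the caller is uncertain. The PHF19 sh#1, PHF19 sh#2 and IgG libraries were not analysed here.

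Peaks (3 lists, overlap of at least 1 bp) and genes (GENCODE 44 on GRCh37) were joined in Python 3.11.15, using pandas 2.3.3, scipy 1.17.1 and numpy 2.4.6, and plotted with matplotlib 3.10.9. Of 27348 symbols 24419 were placed, 12 members through a current symbol. Intervals are exact binomial and cover counting error over genes only. Depth per library is unknown, and no test between conditions was made, in place of the count model first planned. All members are named, with the peaks and elements at them and up to 10 sequences. Of each other list, genes at both ends by authors' mean are named, with their levels per kb, and FARS2 was added as the lowest per kb after its value was seen. Some values are not reported here. Members and lists were chosen with earlier results of these data known. The steps were tested on simulated data. Alternatives were other windows, overlaps, score minimums, starts, lengths and motifs.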

Additional observations from a re-analysis of the deposited data

How the results depend on the processing

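No paired analysis was possible because the expression table gives no values per library. For the same reason no replicate could be left out and the count model alternatives were not run. With peaks at or above the median score, promoter peaks stood at 0 members for PHF19, 1 for MTF2 in sh#2 cells and 0 for MTF2 in shCT cells, and targets numbered 0, 1 and 0. With promoters of 5 kb on either side, PHF19 and MTF2 in shCT cells had peaks at 2 members each. Among members with an authors' mean of at least 1000, a setting chosen after seeing the data, MTF2 in sh#2 cells had a promoter peak at 1. The composite element stood in 7 of 29 members as TTGCATCA (24.1%, against 0.961% of all genes with a promoter). As TGATGCAAT it stood in 1 (3.45%, against 0.263%). Within the last 150 bases before the start it stood in 3 (10.3%, against 1.96%). That window leaves out sites that span or follow the start, and those farther upstream in CHAC1 and AARS. The number of members in the top 25% by level was between 21 and 29 over 3 alternatives. The other settings gave counts within 1.5 times the reported ones.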
